A study of Mus musculus with 24 samples.

Results

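Salt was set against plain water in the aorta of infused mice that lack interleukin 17 (IL-17), a cytokine of T helper cells that acts on stromal cells to raise chemokines and acute-phase proteins. The comparison rested on 6 of the 24 one-colour Agilent arrays of the series, picked by their labels with earlier results of these data known. The 3 salt arrays came from IL-17 knockout mice that drank 1% NaCl ahead of and throughout an infusion of β-aminopropionitrile (BAPN) and angiotensin II that ran for 3 days. The 3 water arrays came from IL-17 knockouts that drank no added salt and received the same infusion for 3 days. Both groups therefore share the knockout, the C57BL/6 strain, normal chow, BAPN and angiotensin II, and differ in the drinking water. The deleted IL-17 gene, the age and sex of the mice and the time on salt before the infusion are not given in the sources used here. The other 18 arrays hold knockouts on salt or water with vehicle and the same 4 treatments in wild-type C57BL/6 mice, 3 arrays in each of 8 groups that the series calls biological replicates.

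Angiotensin II constricts arteries, promotes sodium retention and drives inflammation in the arterial wall. BAPN blocks the lysyl oxidases, which crosslink collagen and elastin, and together the agents are used to bring about aortic dissection in mice. High salt loads the circulation with volume and can act on cells through osmotic stress, to which cells respond with the transcription factor NFAT5 and with transporters of osmolytes.

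No gene passed the test for salt during infusion in the knockout. Of 23505 genes tested with limma over all 24 arrays, 0 (0%) were higher and 0 (0%) lower in the salt arrays at an adjusted p under 0.05, and the smallest adjusted p was 0.0503, for Scube1. At an unadjusted p under 0.05 there were 1064 genes (4.53%), 662 (2.82%) of them higher and 402 (1.71%) lower. In 879 of the 23482 genes with a value on all 6 arrays (3.74%) the salt arrays all lay above the water arrays, and in 748 (3.19%) they all lay below. The median log2 difference, salt minus water, was 0.02, and 98.8% of genes differed by less than 1 on the log2 scale. The median standard error was 0.21 (0.11 at the 5th and 0.53 at the 95th percentile of genes). It gives a 95% interval of a median half-width of 0.44. That interval holds for 1 gene without adjustment, and smaller differences in a typical gene could not be seen at this number of arrays. Passing the adjusted test took more, since Scube1 did not pass with a log2 difference of 1.43. Finding no genes therefore does not exclude differences above 0.44. Levels below are normalised log2 signals, the log2 of the processed signal minus that of the array's 75th percentile, and each gene was read from its brightest probe.

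The spread among the 6 arrays was uneven, since water array 3 stood apart from the other 5. The median SD over genes was 0.17 among the salt arrays and 0.33 among the water arrays. It was 0.16 for water arrays 1 and 2 alone, an SD of 2 arrays that is not directly comparable with those of 3. Over genes, salt arrays correlated with each other at 0.990 to 0.993, with water arrays 1 and 2 at 0.984 to 0.992, and with water array 3 at 0.981 to 0.987. Water array 3 correlated with water arrays 1 and 2 at 0.974 and 0.972, and water arrays 1 and 2 correlated with each other at 0.988. These correlations describe arrays that share a platform and most of their genes.

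The wild-type arrays gave an outside measure of how far each array showed the infusion, although the infused wild-type arrays on water were all on slide 4 and the vehicle ones all on slide 3, so that infusion and slide cannot be told apart in it. Among 2856 genes that rose with infusion in wild-type mice on water (adjusted p under 0.05), the median level above the knockout vehicle arrays on water was 0.80, 0.69 and 0.82 on salt arrays 1, 2 and 3, against 1.01, 0.85 and 0.53 on water arrays 1, 2 and 3. Among 3231 genes that fell there, the medians were −0.58, −0.49 and −0.60 on the salt arrays and −0.79, −0.59 and −0.45 on the water arrays. By both measures the salt arrays lay between the extremes of the water arrays, and water array 3 had the smallest departure from the vehicle arrays of all 6. The knockout vehicle arrays, with and without salt, lay between −0.06 and 0.04 for the first set of genes. Because the knockout vehicle arrays on water are also the zero of this scale, their own values are centred by construction.

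**Figure D1:**
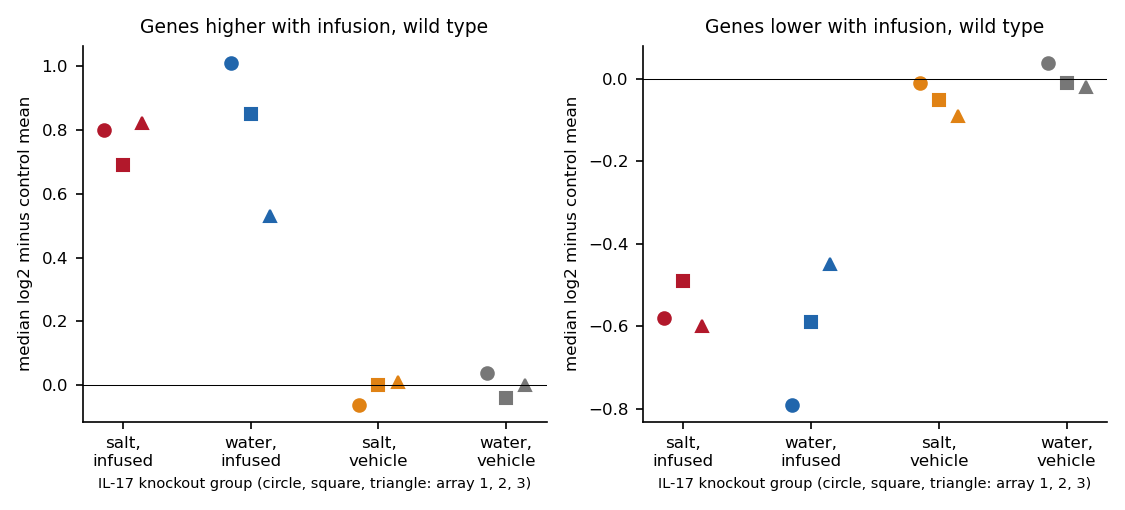
Median log2 signal of genes that were higher (left) or lower (right) with infusion in wild-type mice, minus the mean of the 3 knockout vehicle arrays on water, for each of the 12 knockout arrays. Each point is 1 array, and the 3 salt, infused arrays (0.69 to 0.82 at left) sit inside the range of the water, infused arrays (0.53 to 1.01).

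Water array 3 also differed by its slide. It was on slide 2 with the 3 salt arrays, whereas water arrays 1 and 2 were on slide 1 with the 6 knockout vehicle arrays. A pair of further values is therefore given where they differ: the difference with water array 3 left out, in which the groups lie on different slides and slide and salt cannot be told apart, and the difference with slide as a block, which equals salt minus water array 3 alone. Without water array 3, 83 genes (0.353%) were higher and 9 (0.0383%) lower at an adjusted p under 0.05. With slide as a block, 166 (0.706%) were higher and 95 (0.404%) lower. Those 92 and 261 genes had 4 in common, of which Scube1 was the one with a gene name. Dim genes moved with the same choice: among the 5877 dimmest genes the median difference was 0.09 over all arrays, 0.20 without water array 3 and −0.23 with slide as a block.

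The 6 genes of smallest p with a higher mean in the salt arrays, none of which passed, were Scube1, Adcyap1, Ctcfl, Scn2b, Lrrc14b and Hes1. Scube1 encodes a protein with EGF-like and CUB domains found at the surface of endothelial cells and platelets (its probe lies at mm9 chromosome 15, 83435445 to 83435504). Its levels were −2.86, −2.98 and −2.92 on salt arrays 1, 2 and 3, against −4.30, −4.45 and −4.29 on water arrays 1, 2 and 3. Each salt array lay above every water array, and the water arrays lay beside the vehicle mean of −4.43. The log2 difference was 1.43 ± 0.21 (SE; 95% interval 0.98 to 1.87), a 2.69-fold difference with an adjusted p of 0.0503. The probe was well above background, a flag of the scanner software, on 3 salt arrays and 1 water array. Scube1 passed without water array 3 (log2 1.46, adjusted p = 0.0156), with slide as a block (log2 1.37, adjusted p = 0.0451) and with the mean of a gene's probes (adjusted p = 0.0494), and over all alternatives its adjusted p lay between 0.0156 and 0.808. With normexp background correction, which adds an offset that shrinks differences of dim probes, the log2 difference was 0.44 (adjusted p = 0.639).

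Hes1, a transcriptional repressor and target of Notch signalling (mm9 chromosome 16, 30067820 to 30067879), had levels of −2.25, −2.21 and −2.26 on the salt arrays, against −3.36, −3.33 and −3.03 on the water arrays. The groups did not overlap, and the vehicle mean of −2.66 lay between them. The log2 difference was 1.00 ± 0.23 (SE; adjusted p = 0.59). Scn2b, an auxiliary subunit of voltage-gated sodium channels, had −1.34, −1.27 and −1.49 on the salt arrays, against −2.55, −1.66 and −2.08 on the water arrays, a log2 difference of 0.73 ± 0.16 (adjusted p = 0.517). Its salt levels lay near the vehicle mean of −1.47, and the water arrays lay below it. Lrrc14b had −2.55, −1.90 and −2.38 on the salt arrays, against −3.52, −3.13 and −3.01 on the water arrays (log2 0.94 ± 0.21, adjusted p = 0.59), with a vehicle mean of −1.23 above both. With normexp both Hes1 and Lrrc14b had a difference of 0.47.

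The other members of the 6 were dim. Adcyap1 encodes the vasodilator neuropeptide PACAP, and it was well above background on 3 salt arrays and on 0 water arrays. Its levels were −4.78, −4.03 and −4.36 on the salt arrays, against −6.53, −6.29 and −6.98 on the water arrays, and it was at least 1.44-fold higher with salt (adjusted p = 0.369). That bound sets the brighter group's mean against the array's detection floor, the dimmest signal that the scanner software still set apart from background, or the dim probe's own signal where that was higher. Ctcfl, a relative of the insulator protein CTCF that is best known from testis, had −4.74, −4.57 and −4.57 on the salt arrays, against −6.68, −6.47 and −5.30 on the water arrays, and was at least 1.22-fold higher (adjusted p = 0.475). It was also well above background on the 3 salt arrays alone, and without water array 3, its brightest water array, its adjusted p was 0.0103. Leaving out the water array nearest the salt arrays widens the difference, so that value is no separate evidence. Probes that cleared background on all 3 arrays of any group were tested, so the salt arrays alone sufficed to keep both genes. With normexp the log2 differences were 0.22 for Adcyap1 and 0.14 for Ctcfl (adjusted p = 0.969 for both). Both are smaller than the bounds, which carry no sampling error and hold only for the processing without that correction.

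The 6 genes of smallest p with a lower mean in the salt arrays were Klra9, Cntfr, Cyp3a11, Rpp38, Ccl24 and Fdft1, and none passed. Ccl24 encodes eotaxin-2, a chemokine that attracts eosinophils (mm9 chromosome 5, 136046667 to 136046726). Its levels were −0.65, −0.43 and −1.02 on the salt arrays, against 0.33, −0.26 and 1.14 on the water arrays. The groups did not overlap, with water array 3 highest and near the vehicle mean of 0.89. The log2 difference was −1.11 ± 0.28 (SE; adjusted p = 0.65), and it was −0.74 without water array 3 and −1.84 with slide as a block (adjusted p = 0.0176). Rpp38, a subunit of the tRNA-processing enzyme RNase P (mm9 chromosome 2, 3246440 to 3246499), had 0.83, 0.54 and 0.80 on the salt arrays, against 1.15, 1.12 and 1.31 on the water arrays. Its difference was small and even across arrays, at −0.47 ± 0.12 (adjusted p = 0.65).

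Cntfr, a receptor chain for ciliary neurotrophic factor, had −4.97, −6.79 and −5.67 on the salt arrays, against 0.94, −3.20 and −4.38 on the water arrays, where water array 1 was far above the others. It was well above background on 1 salt array and 3 water arrays, and its log2 difference of −3.60 ± 0.85 (adjusted p = 0.59) became −4.68 without water array 3 (adjusted p = 0.0157), −1.43 with slide as a block, −1.75 with normexp and −2.21 with the mean of its probes. Since salt arrays 2 and 3 did not clear background, the size is uncertain. Water array 3 was the water array nearest the salt arrays, so leaving it out widens the difference and is no separate evidence. Klra9, a natural killer cell receptor of the Ly49 family, and Cyp3a11, a cytochrome P450 of the liver, did not clear background on any of the 6 arrays, so no fold can be given. Both belong to families of near-identical genes that a probe may not tell apart.

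**Figure D2:**
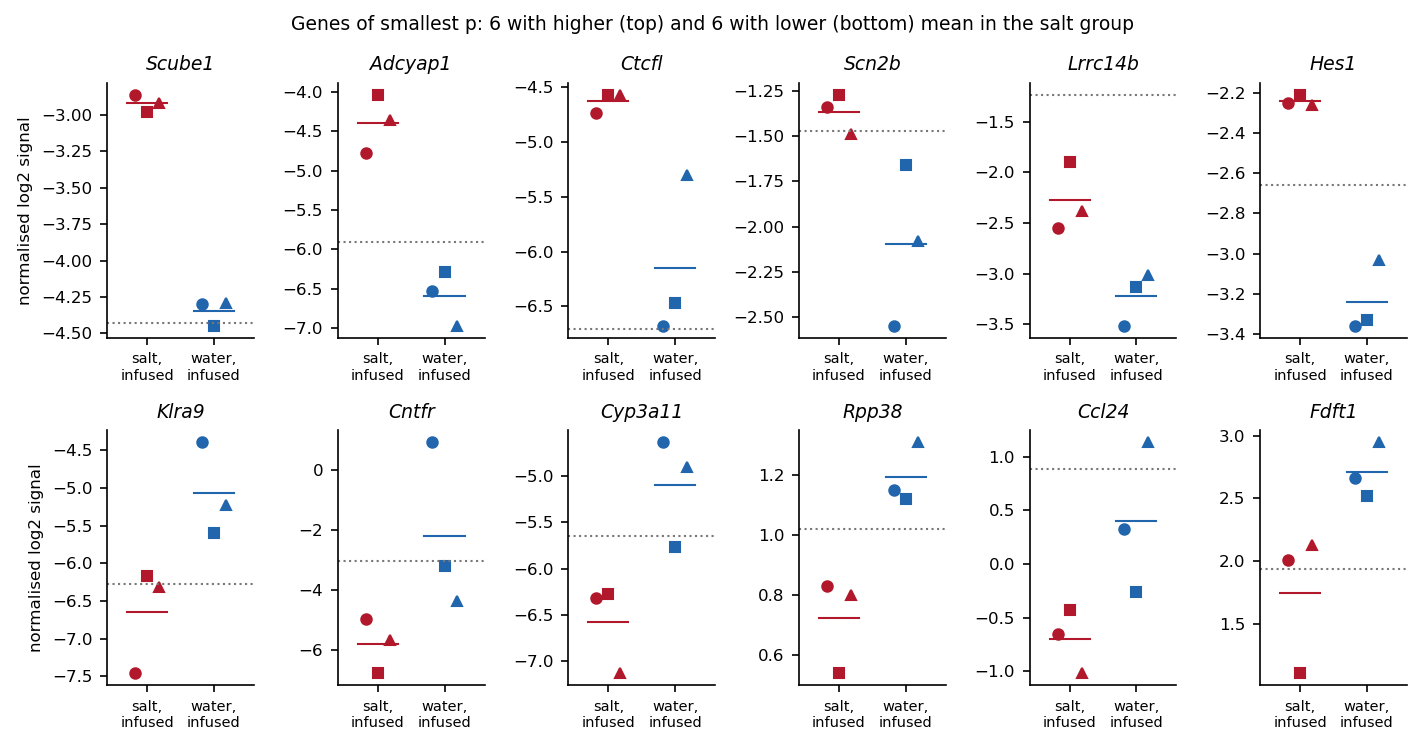
Normalised log2 signal of the 12 genes of smallest p that the rule named, by array, with 3 salt, infused arrays at left (red) and 3 water, infused arrays at right (blue), a bar at each group mean and a dotted line at the knockout vehicle mean on water. Scales differ between genes, 1 array often sets the distance within a group (Cntfr, water array 1), and none of the 12 passed at an adjusted p under 0.05.

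Fdft1 belongs to the sterol route, of which several members had lower levels in the salt arrays without passing the test. Cholesterol is made from acetyl-CoA through mevalonate, isoprenoids and squalene, and cells adjust the whole route together through the transcription factor SREBP-2, which is released when sterols in the endoplasmic reticulum run low. Of the 29 genes listed for cholesterol and fatty acid synthesis, all of which were measured, 0 passed, 9 were lower in the salt arrays at an unadjusted p under 0.05 (background 1.71%) and 0 were higher. In 7 of the 29 the salt arrays all lay below the water arrays (background 3.19%), and 26 of 29 had a negative difference. The list's median difference was −0.32, against 0.02 over all genes. In whole tissue, fewer cells of a type and less RNA per cell cannot be told apart, here and in the lists that follow. They included Fdft1, Hmgcs1, Insig1, Stard4, Mvd, Idi1, Sc5d and Cyp51, genes of the sterol route, its feedback or sterol transport. Members of lists other than those the rule set, here and in what follows, were named after their values were seen.

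Fdft1 encodes squalene synthase, the first enzyme committed to sterols. Its levels were 2.01, 1.11 and 2.13 on the salt arrays, against 2.66, 2.52 and 2.95 on the water arrays. No salt array reached a water array, and salt array 2 was lowest. The log2 difference was −0.96 ± 0.24 (SE; adjusted p = 0.696), with −0.84 without water array 3 and −1.20 with slide as a block. Hmgcs1, the HMG-CoA synthase at the entry of the mevalonate route, had 4.38, 3.89 and 4.72 on the salt arrays, against 5.17, 4.80 and 5.97 on the water arrays, a difference of −0.98 ± 0.27 (adjusted p = 0.774). The groups did not overlap, and water array 3 was highest. The difference was −0.65 without that array and −1.65 with slide as a block (adjusted p = 0.0288).

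Insig1, the sterol sensor that holds SREBP in the endoplasmic reticulum and is itself an SREBP target, had −1.33, −2.02 and −0.70 on the salt arrays, against −0.54, −0.49 and 0.38 on the water arrays (log2 −1.13 ± 0.33, adjusted p = 0.859). The groups lay apart by a narrow gap, between salt array 3 and water array 1. Idi1, the isomerase that makes dimethylallyl diphosphate, had 3.09, 2.65 and 3.52 on the salt arrays, against 3.82, 3.47 and 4.73 on the water arrays (log2 −0.92 ± 0.36, adjusted p = 1). Here salt array 3 lay just above water array 2. Among the enzymes of fatty acid synthesis in the list, the differences were −0.03 for Acly, 0.06 for Acaca, −0.39 for Fasn and 0.01 for Scd1, each at an unadjusted p above 0.05. Fasn, the fatty acid synthase, was −0.12 without water array 3 and −0.95 with slide as a block (adjusted p = 0.0473). The difference between the sterol and the fatty acid genes was not tested.

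The promoters of 3 of these genes are shown because the route is known to be controlled through its promoters. Windows of 250 bases before to 50 after the start of the gene were taken from RefSeq (GRCm38.p6), at chr13:119690101-119690400 for Hmgcs1, chr13:8885356-8885655 for Idi1, chr5:28071162-28071461 for Insig1, all on the + strand, and 19 of the 29 genes had 25 such windows. Capitals mark TCACNCCAC, a form of the sterol regulatory element, and CCAAT, the box bound by NF-Y, each on either strand, and the marked stretches do not overlap in these windows.
Hmgcs1: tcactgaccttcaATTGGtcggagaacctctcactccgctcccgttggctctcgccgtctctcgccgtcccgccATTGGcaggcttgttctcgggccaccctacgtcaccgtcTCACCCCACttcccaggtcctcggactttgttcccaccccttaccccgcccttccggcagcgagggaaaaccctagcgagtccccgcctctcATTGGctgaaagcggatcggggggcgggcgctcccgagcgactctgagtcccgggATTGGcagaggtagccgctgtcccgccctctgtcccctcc
Idi1: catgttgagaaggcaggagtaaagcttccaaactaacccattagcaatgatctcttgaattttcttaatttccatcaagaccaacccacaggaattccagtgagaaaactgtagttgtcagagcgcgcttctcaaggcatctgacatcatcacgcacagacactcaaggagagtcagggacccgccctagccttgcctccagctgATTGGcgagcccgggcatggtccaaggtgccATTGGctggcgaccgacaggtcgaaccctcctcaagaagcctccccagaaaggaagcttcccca
Insig1: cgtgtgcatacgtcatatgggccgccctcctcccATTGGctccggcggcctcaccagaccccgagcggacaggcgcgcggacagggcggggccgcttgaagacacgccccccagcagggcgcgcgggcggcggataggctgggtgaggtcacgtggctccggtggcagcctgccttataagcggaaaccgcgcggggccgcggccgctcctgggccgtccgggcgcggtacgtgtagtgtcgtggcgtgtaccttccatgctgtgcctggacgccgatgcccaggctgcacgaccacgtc

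TCACNCCAC occurred in 1 of the 25 windows, that of Hmgcs1, and in 408 of all 32851 windows (1.24%). CCAAT occurred in 18 of the 25 windows, which belong to 17 of the 19 genes, and in 12289 of all windows (37.4%). The Hmgcs1 window held 4 CCAAT boxes, that of Idi1 2 and that of Insig1 1. These matches describe letters in a window and not binding.

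The count for this list rested on few arrays. It was 3 of 29 without salt array 2 (background 1.22%), and 4 of 29 without water array 3 (background 5.98%). Without any one of the other 4 arrays it was 8 to 12 of 29, and with slide as a block it was 11 of 29 (background 8.36%). The list's median kept its sign with each array left out, at −0.47 to −0.24. By array, the list's median relative to the knockout vehicle arrays on water was 0.15, −0.03 and 0.60 on salt arrays 1, 2 and 3, against 0.64, 0.55 and 1.01 on water arrays 1, 2 and 3. Salt array 3 lay above water array 2, so the groups overlapped.

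**Figure D3:**
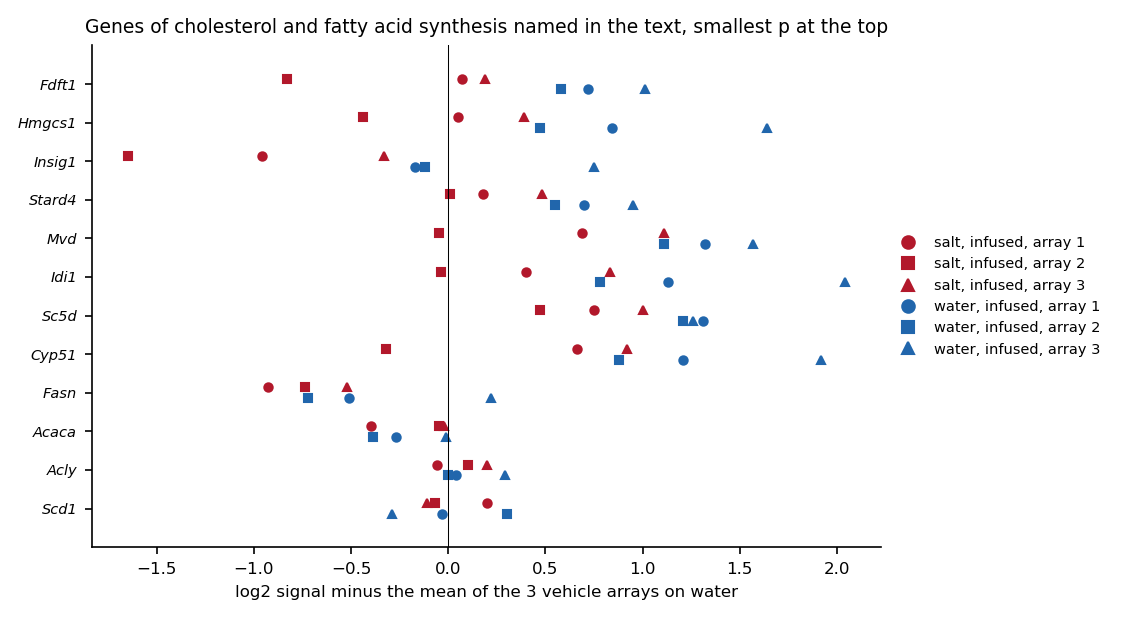
Log2 signal of 12 cholesterol and fatty acid synthesis genes named in the text, minus the mean of the 3 knockout vehicle arrays on water, with salt, infused arrays in red and water, infused arrays in blue, 1 point an array. Salt array 2 (red square) is often lowest and water array 3 (blue triangle) often highest, and the genes of fatty acid synthesis (Acly, Acaca, Fasn and Scd1) overlap.

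The lowest median of any list was that of mesothelial and epithelial markers, and salt array 2 set much of its size. Mesothelium covers the outer surface of organs in the chest and abdomen and can come along when the aorta is dissected out. Of the 14 measured markers of 19 listed, 0 passed and 10 were lower in the salt arrays at an unadjusted p under 0.05 (background 1.71%). In all 10 the salt arrays lay below the water arrays with no overlap (background 3.19%), and the list's median difference was −1.69. Msln, the mesothelial surface protein mesothelin, had 2.45, −1.10 and 2.25 on the salt arrays, against 2.87, 3.39 and 2.72 on the water arrays (log2 −1.80 ± 0.72, adjusted p = 1). Wt1, a transcription factor of mesothelial cells, had −1.22, −4.76 and −1.22 on the salt arrays, against −1.11, −0.21 and −0.68 on the water arrays. Krt19, a keratin of simple epithelia, had −0.22, −3.17 and −0.82 on the salt arrays, against 0.55, 0.76 and 0.48 on the water arrays. Salt array 2 was the lowest array in each of these 3 genes, by over 2 on the log2 scale.

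Without salt array 2, the median of the mesothelial list was −0.69, still the lowest of the 48 lists, and 1 of 14 markers was lower at an unadjusted p under 0.05 (background 1.22%). The count was 5 without water array 2 (background 2.67%) and 0 with slide as a block (background 8.36%). Without any one of the other arrays it was 9 to 11 (background 1.48% to 5.98%, the highest without water array 3). Krt14, a keratin of stratified epithelia, was less dependent on that array, with −3.49, −4.17 and −3.71 on the salt arrays, against −2.53, −2.84 and −3.11 on the water arrays (log2 −0.96 ± 0.25, adjusted p = 0.696). The summed signal of the 14 markers, as a multiple of the array's 75th percentile, was 34.6, 21.2 and 29.2 on the salt arrays, against 39.1, 46.7 and 39.9 on the water arrays. The sterol genes and these markers were both lowest on salt array 2, and the part of either in the other was not tested.

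**Figure D4:**
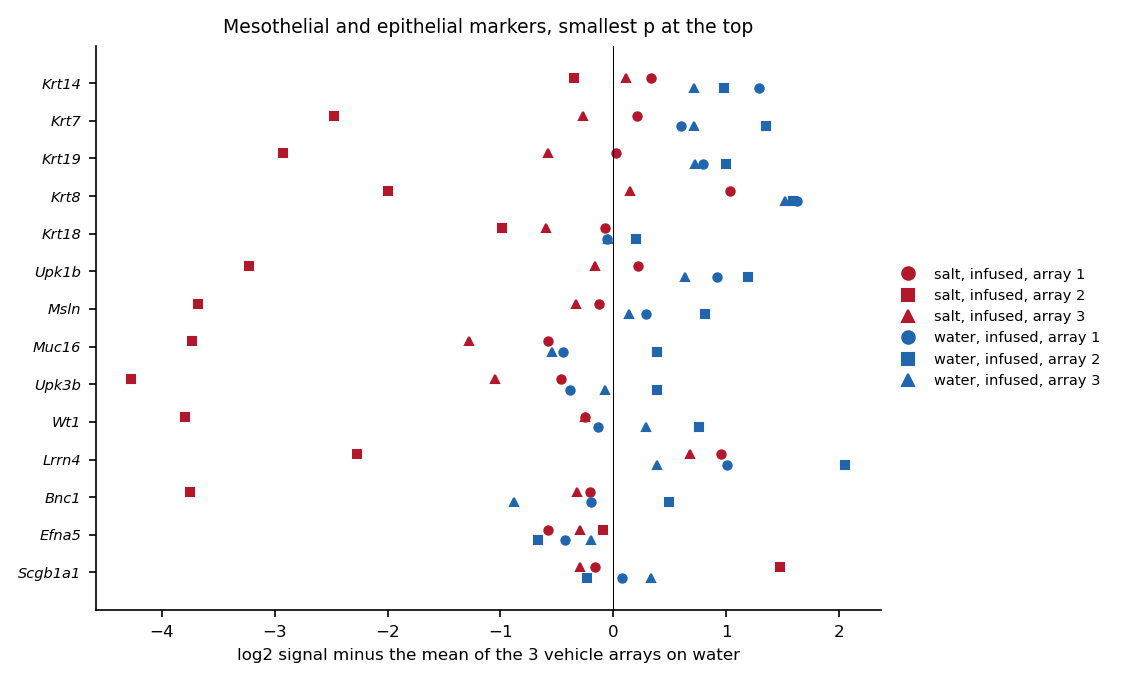
Log2 signal of the 14 measured mesothelial and epithelial markers minus the mean of the 3 knockout vehicle arrays on water, with salt, infused arrays in red and water, infused arrays in blue, 1 point an array. Salt array 2 (red square) lies far below the other 5 arrays for most markers, among them Msln and Wt1.

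Of the 48 lists, hypoxia and glycolysis had the most members that were higher in the salt arrays at an unadjusted p under 0.05. Of 28 measured, 0 passed, 6 were higher by that measure (background 2.82%) and 0 lower, and 5 of the 28 had all salt arrays above all water arrays (background 3.74%). The list's median was 0.03, and the glycolytic enzymes Aldoa and Ldha had differences of −0.08 ± 0.09 and −0.00 ± 0.20. Pfkl, the liver-type subunit of phosphofructokinase, the pacemaker of glycolysis, had −0.14, −0.08 and 0.16 on the salt arrays, against −0.60, −0.96 and −0.36 on the water arrays. Water array 3 lay nearest the salt arrays, so leaving it out widens the difference and is no separate evidence. The groups lay apart, and the log2 difference was 0.62 ± 0.15 (adjusted p = 0.59), or 0.76 without water array 3 (adjusted p = 0.039) and 0.34 with slide as a block (adjusted p = 0.409). Ddit4, an inhibitor of mTORC1 that hypoxia and glucocorticoids induce, had 2.26, 1.93 and 2.44 on the salt arrays, against 1.85, 1.75 and 0.68 on the water arrays (log2 0.78 ± 0.29, adjusted p = 1). Water array 3 was lowest, and the difference was 0.41 without it and 1.53 with slide as a block (adjusted p = 0.0225). Pdk1, a kinase that holds back pyruvate oxidation, was 0.14 without water array 3 and 0.85 with slide as a block (adjusted p = 0.0296). The other 4 were Egln3, Pdk1, Slc16a3 and Pfkm, with differences of 0.38 to 0.44 over all arrays. Without salt array 1 the count was 2 of 28 (background 3.5%), and without any one of the other 5 arrays 4 or 5 of 28 (background 1.48% to 12.2%, the highest without water array 3). With slide as a block 2 were higher (background 7.84%) and 3 lower (background 8.36%), near the shares over all genes.

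Genes of the matrix had medians near 0. Of 37 measured genes of collagens and fibrillar matrix, 0 passed, 1 was higher (background 2.82%) and 2 lower (background 1.71%) at an unadjusted p under 0.05, counts near those shares, and the median was 0.04. Col1a1 had 6.93, 7.02 and 7.01 on the salt arrays, against 6.95, 6.95 and 7.09 on the water arrays, and Col3a1 had 7.87, 7.82 and 7.80 against 7.77, 7.90 and 7.87. Dcn, the collagen-binding proteoglycan decorin, had 8.03, 7.95 and 7.86 on the salt arrays, against 8.04, 8.37 and 8.44 on the water arrays (log2 −0.34 ± 0.14, adjusted p = 1). P4ha1, a subunit of the prolyl hydroxylase that stabilises the collagen helix, had 2.65, 2.82 and 2.68 on the salt arrays, against 2.28, 2.30 and 2.51 on the water arrays (log2 0.35 ± 0.16, adjusted p = 1). In both genes the groups did not overlap, and the Dcn difference was −0.22 with quantile normalisation. The remaining gene was Lum, encoding lumican, whose probe read −7.20 on salt array 3 and 5.25 to 6.43 on the other 5 arrays, so its log2 difference of −4.38 ± 2.04 rests on that spot and was −0.02 without that array.

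Among 23 genes of elastic fibres and crosslinking, 0 passed, 2 were higher and 1 lower at an unadjusted p under 0.05, against the same background. Eln, which encodes elastin, had 6.30, 6.05 and 6.28 on the salt arrays, against 5.53, 5.93 and 5.58 on the water arrays. All 6 arrays lay above the vehicle mean of 4.44, the salt arrays more so, and the log2 difference was 0.53 ± 0.23 (adjusted p = 1). Loxl3, a relative of lysyl oxidase, had 2.44, 2.56 and 2.62 on the salt arrays, against 2.17, 2.08 and 2.25 on the water arrays (log2 0.37 ± 0.13, adjusted p = 1). Mfap5, a glycoprotein of microfibrils, had 7.39, 7.27 and 7.34 on the salt arrays, against 7.74, 7.77 and 7.56 on the water arrays (log2 −0.36 ± 0.11, adjusted p = 0.916). Lox itself, the main target of BAPN, had 3.42, 3.22 and 3.66 on the salt arrays, against 3.88, 3.27 and 3.26 on the water arrays, and the groups overlapped. Of 27 measured genes of the TGF-β pathway and its targets, 0 passed, 2 were higher (background 2.82%) and 0 lower at an unadjusted p under 0.05, with a median of −0.05. These were Id1 and Id3, inhibitors of differentiation induced by bone morphogenetic proteins, with log2 differences of 0.66 ± 0.23 (adjusted p = 1) and 0.53 ± 0.16 (adjusted p = 0.859), each with all salt arrays above all water arrays.

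The fibroblast list had a median of −0.31 over 20 genes, of which 0 passed and 4 were lower at an unadjusted p under 0.05 (background 1.71%), namely Mfap5, Dcn, Lum and Cd34. Lum is among them because of the spot on salt array 3 described above, which also lowers the list's sum on that array. The summed signal of the list, as a multiple of the array's 75th percentile, was 996, 1010 and 891 on the salt arrays, against 1050, 1240 and 1240 on the water arrays, with no overlap. Cd34, a surface protein of adventitial fibroblasts and endothelium, had 5.83, 5.92 and 5.76 on the salt arrays, against 5.96, 6.28 and 6.15 on the water arrays (log2 −0.29 ± 0.13, adjusted p = 1). The count was 1 of 20 without water array 2, without water array 3 or without salt array 3 (background 2.67%, 5.98% and 1.48%), and 4 or 6 without any one of the other arrays.

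IL-17 itself could not be read on these arrays. The probes for Il17a and Il17f cleared background on 0 of the 24 arrays, and on the 6 arrays their signals lay at −7.66 to −6.72 for Il17a and −7.40 to −6.15 for Il17f, under the arrays' detection floor (−5.41 to −4.41). The labels do not name the deleted gene, so these probes check nothing about the genotype. Of 21 measured genes of the IL-17 response, 0 were higher and 0 lower at an unadjusted p under 0.05, and the median difference was −0.27. All 21 had a negative difference, the smallest in size at −0.02, beside a median of 0.02 over all genes. By array, the list's median relative to the knockout vehicle arrays on water was 0.72, 0.72 and 0.90 on the salt arrays. On water arrays 1, 2 and 3 it was 1.66, 1.02 and 0.98. The list's median difference was −0.08 without water array 1, and −0.48 to −0.22 without any one of the other arrays. The members of smallest p were S100a9 and S100a8, the subunits of calprotectin, a protein of neutrophils. S100a9 had −2.28, −2.07 and −1.33 on the salt arrays, against 3.12, −1.84 and −0.63 on the water arrays, and S100a8 had −4.19, −3.85 and −3.03 on the salt arrays, against 1.12, −3.49 and −2.52 on the water arrays. Water array 1 alone was high, and without it the differences of −2.11 ± 1.27 and −2.05 ± 1.28 (adjusted p = 1 for both) were −0.66 and −0.68. Saa3, an acute-phase protein, had −2.05, −2.69 and −2.72 on the salt arrays, against −1.13, −1.40 and −1.91 on the water arrays (adjusted p = 1), where all 6 lay far above the vehicle mean of −6.17.

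Of 23 inflammatory cytokines and chemokines, 0 had an unadjusted p under 0.05. Ccl11, which encodes the eosinophil attractant eotaxin-1, had −1.39, −0.55 and −0.99 on the salt arrays, against −0.39, −0.63 and −0.37 on the water arrays (log2 −0.52 ± 0.28, adjusted p = 1). Cxcl12, a chemokine of stromal cells, had 3.94, 3.98 and 4.06 on the salt arrays, against 3.99, 3.93 and 2.76 on the water arrays (log2 0.44 ± 0.37, adjusted p = 1), and it was 0.03 without water array 3. Cxcr2, the neutrophil receptor for chemokines, was well above background on 0 salt arrays and 3 water arrays, with −6.00, −5.25 and −6.70 against −2.99, −3.76 and −4.21. By the bound described for Adcyap1 it was at least 2.88-fold lower with salt, but it did not pass (adjusted p = 1). The water arrays alone sufficed to keep it among the genes tested. Of the other 15 measured neutrophil markers, 0 had an unadjusted p under 0.05.

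Of 26 measured genes of the osmotic response and sodium transport, 0 were higher and 0 lower at an unadjusted p under 0.05, and the median was 0.02. Slc6a6, the transporter of the osmolyte taurine, had 2.65, 3.39 and 3.00 on the salt arrays, against 2.93, 2.53 and 2.65 on the water arrays (log2 0.31 ± 0.16, adjusted p = 1). Scnn1a, the α subunit of the epithelial sodium channel, had −3.21, −2.93 and −3.35 on the salt arrays, against −3.40, −3.61 and −3.43 on the water arrays (log2 0.31 ± 0.18, adjusted p = 1). The groups overlapped for Slc6a6 and lay just apart for Scnn1a. Nfat5 had −1.06, −0.47 and −0.46 on the salt arrays, against −0.45, −1.19 and −0.24 on the water arrays, and its target Slc5a3, an inositol transporter, differed by 0.11 ± 0.20. Of 15 measured genes of the renin-angiotensin and mineralocorticoid list, 0 had an unadjusted p under 0.05.

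Contractile smooth muscle genes, the markers of the labelled tissue, were among the brightest on all 6 arrays. Acta2, smooth muscle actin, had 8.70, 8.94 and 8.94 on the salt arrays, against 8.84, 8.94 and 9.22 on the water arrays. Of 25 genes, 0 were higher and 0 lower at an unadjusted p under 0.05, with a median of 0.09. Mylk, the kinase that starts contraction, had 2.39, 2.86 and 2.77 on the salt arrays, against 1.57, 1.65 and 3.07 on the water arrays (log2 0.58 ± 0.31, adjusted p = 1). Pdlim3, a protein of actin filaments, had 5.05, 5.37 and 5.39 on the salt arrays, against 4.60, 4.55 and 5.76 on the water arrays (log2 0.30 ± 0.24, adjusted p = 1). In both genes the salt arrays lay above water arrays 1 and 2 and below water array 3, so the sign turned with slide as a block, to −0.40 and −0.49.

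In several lists the sign of the median depended on which water arrays were used. The 33 cell cycle and mitosis genes had a positive difference in 33 and a negative one in 0 over all arrays, with 0 at an unadjusted p under 0.05, and water array 3 was lowest. The median of the 33 cell cycle and mitosis genes relative to the vehicle arrays was 4.85, 4.06 and 4.26 on the salt arrays, against 4.83, 5.01 and 2.38 on the water arrays. The median difference was 0.27 over all arrays, −0.57 without water array 3 and 1.98 with slide as a block. Kif20a, a kinesin of cytokinesis, had 3.10, 2.41 and 2.48 on the salt arrays, against 2.96, 3.26 and 0.14 on the water arrays. For 10 genes of MHC class II presentation the medians were 0.29, 0.02 and −0.17 on the salt arrays, against 0.93, 0.98 and −0.64 on the water arrays, and the difference was −0.22, −0.94 without water array 3 and 1.16 with slide as a block. For 27 macrophage and monocyte markers the difference was −0.10, −0.52 and 0.60 under the same 3 settings, and for 25 contractile genes, in which water array 3 was highest, 0.09, 0.35 and −0.53. The median of 25 immediate early genes was also highest on water array 3, at 0.45 beside −0.18 and −0.32 on water arrays 1 and 2 and −0.45, −0.06 and −0.32 on the salt arrays. Fosb, one of them, read 3.20 on water array 3 and −1.50 to −0.26 on the other 5 arrays.

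The summed signals of cell type markers followed the same arrays, as multiples of the array's 75th percentile. The 27 macrophage and monocyte markers summed to 341, 356 and 359 on the salt arrays, against 485, 437 and 259 on the water arrays. The 26 endothelial markers summed to 314, 246 and 225 on the salt arrays, against 312, 360 and 185 on the water arrays. The 15 cardiac muscle markers summed to 22.6, 13.5 and 22.8 on the salt arrays, against 16.8, 16.9 and 41.3 on the water arrays, and the 19 white adipocyte markers to 102, 98.6 and 69.2, against 65.3, 73.1 and 110 on the water arrays. In each list the salt arrays overlapped the water arrays or lay between them. The part of these cell types in any difference above was not tested.

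**Figure D5:**
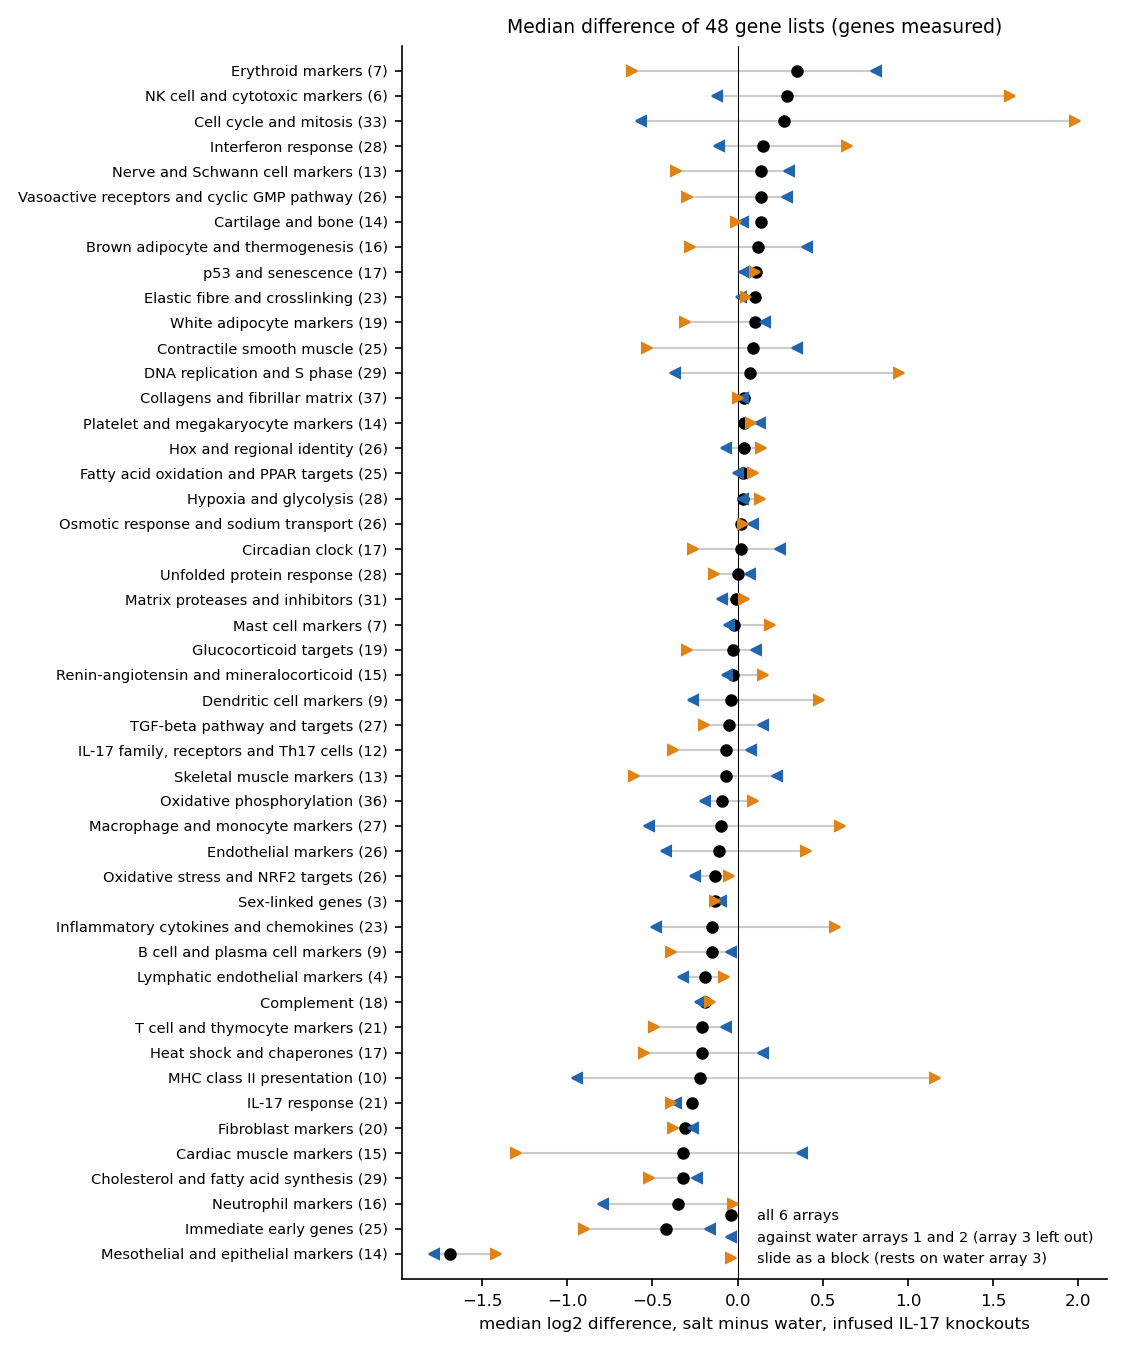
Median log2 difference, salt minus water in infused IL-17 knockouts, of 48 gene lists (number of measured genes in brackets), over all 6 arrays (black circle), with water array 3 left out (blue) and with slide as a block, which rests on water array 3 (orange). For 47 of 48 lists the median over all arrays lies within 0.5 of 0, mesothelial and epithelial markers lie at −1.69, and for several lists the other settings fall on opposite sides of 0.

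Whether salt during infusion acted differently in the knockout and in the wild type was tested as a difference of differences. Salt during infusion in the wild type also gave 0 genes at an adjusted p under 0.05 (unadjusted 458 higher, 1.95%, and 897 lower, 3.82%). The genotype difference, knockout minus wild type, gave 0 (0%), with a smallest adjusted p of 0.195, and at an unadjusted p under 0.05 6.99% of genes, 1077 (4.58%) positive and 565 (2.4%) negative. With slide as a block 16 genes (0.0681%) were positive and 25 (0.106%) negative at an adjusted p under 0.05, without knockout water array 3 33 (0.14%) were positive and 0 negative, and without wild-type salt array 3 5 were positive and 2 negative. The wild-type water arrays were all on slide 4, with wild-type salt array 3, and wild-type salt arrays 1 and 2 were on slide 3, so without salt array 3 slide and salt cannot be told apart in the wild type. No slide held both genotypes. With slide as a block the wild-type difference equals wild-type salt array 3 minus the wild-type water arrays. The knockout difference then rests on knockout water array 3, so 1 group of each genotype rests on 1 array. The 8 genes the rule named, none of which passed, were Scube1, Vmn1r122, Hes1 and Cpne6 on the positive side and Gna14, Mospd2, Fdft1 and Hmgcs1 on the negative side.

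Scube1 had −1.67, −2.03 and −1.70 on wild-type salt, infused arrays and −1.20, −1.46 and −1.55 on wild-type water, infused arrays. The wild-type difference was −0.39 and the genotype difference 1.82 ± 0.30 (adjusted p = 0.195), or 1.85 without knockout water array 3 (adjusted p = 0.029). All 6 wild-type arrays lay above the 6 knockout arrays given earlier. Hes1 had −2.88, −2.09 and −1.92 on wild-type salt arrays, against −2.10, −1.78 and −1.58 on wild-type water arrays, a genotype difference of 1.48 ± 0.33 (adjusted p = 0.601). Cpne6, a calcium-dependent membrane-binding protein, had −1.22, −1.21 and −1.58 on knockout salt arrays, −2.39, −2.20 and −2.11 on knockout water arrays, −1.32, −1.18 and −1.93 on wild-type salt arrays and −1.14, −1.38 and −0.70 on wild-type water arrays. Its knockout water arrays were the lowest of the 4 groups (genotype difference 1.30 ± 0.30, adjusted p = 0.601). Vmn1r122, a vomeronasal receptor, was well above background on 2 knockout salt arrays and 0 knockout water arrays, so no fold is given. It passed without knockout water array 3 (adjusted p = 0.0163).

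Gna14, a G protein α subunit of the Gq class, had −2.81, −2.60 and −2.48 on knockout salt arrays, −2.35, −1.90 and −2.14 on knockout water arrays, −2.18, −1.96 and −2.60 on wild-type salt arrays and −3.16, −2.97 and −3.19 on wild-type water arrays. Salt arrays were lower in the knockout and higher in the wild type. The genotype difference was −1.36 ± 0.26 (adjusted p = 0.431) and −0.84 with normexp. It was −1.54 without wild-type salt array 3 (adjusted p = 0.0334), the salt array nearest the wild-type water arrays. Leaving that array out widens the difference, so the value is no separate evidence. Mospd2, a protein that tethers the endoplasmic reticulum to other membranes, had a genotype difference of −0.75 ± 0.16 (adjusted p = 0.534), with −0.37 in the knockout and 0.38 in the wild type.

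Both sterol enzymes the rule named lay on the negative side of the genotype difference. Fdft1 had 1.89, 1.91 and 1.93 on wild-type salt arrays, against 1.57, 1.62 and 0.64 on wild-type water arrays, where array 3 was low. Its genotype difference was −1.59 ± 0.35 (adjusted p = 0.571). Hmgcs1 had 4.58, 4.99 and 4.57 on wild-type salt arrays, against 4.26, 4.30 and 3.28 on wild-type water arrays, with a genotype difference of −1.75 ± 0.39 (adjusted p = 0.571). In both genes the wild-type difference was positive and the knockout difference negative. Of the 29 cholesterol and fatty acid synthesis genes, 0 passed for the genotype difference, 17 were negative at an unadjusted p under 0.05 (background 2.4%) and 0 positive, and the medians were −0.32 in the knockout and 0.42 in the wild type. The count of 17 was 9 without knockout salt array 2, 9 without wild-type water array 3, 10 without wild-type salt array 3 and 11 without knockout water array 3 (background 1.48%, 1.84%, 1.77% and 5.53%). With slide as a block, in which 1 group of each genotype rests on 1 array, it was 20 (background 5.82%). Of the 14 mesothelial and epithelial markers, 9 were also negative at an unadjusted p under 0.05 (background 2.4%). That count was 0 with slide as a block (background 5.82%) and 3 to 10 with each of the 12 arrays left out in turn (background 1.48% to 5.62%). It was 3 without knockout salt array 2, 4 without wild-type salt array 2 and 5 without wild-type water array 1 (background 1.48%, 3.12% and 5.62%). The part of these markers in the sterol result was not tested.

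Whether salt acted differently with and without infusion in the knockout was tested in the same way. Salt with vehicle gave 0 genes at an adjusted p under 0.05 (at an unadjusted p under 0.05, 3.03% of genes, 337 or 1.43% higher and 376 or 1.6% lower). The difference, infused minus vehicle, gave 0 (0%), with a smallest adjusted p of 0.783, and at an unadjusted p under 0.05 4.52% of genes, 711 (3.02%) positive and 352 (1.5%) negative. With slide as a block 94 genes (0.4%) were positive and 57 (0.243%) negative at an adjusted p under 0.05, without infused water array 3 2 (0.00851%) were positive, and without vehicle salt array 1 the 1 gene was Scube1. The rule named Scube1, Gal3st3, Scn2b and Casq2 on the positive side and Slurp1, Fhad1, Baiap2 and Fbxo24 on the negative side, and none passed.

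Scube1 had −4.08, −5.10 and −4.71 on vehicle salt arrays, against −4.79, −4.41 and −4.11 on vehicle water arrays, and these 6 overlapped. The difference of its salt effects was 1.62 ± 0.30 (adjusted p = 0.783), or 1.90 without vehicle salt array 1 (adjusted p = 0.0232). That array was the highest of the vehicle salt arrays, so leaving it out widens the difference and is no separate evidence. Casq2, calsequestrin of cardiac muscle, had −3.28, −3.05 and −2.52 on infused salt arrays, −4.60, −4.91 and −3.22 on infused water arrays, −6.07, −4.89 and −5.61 on vehicle salt arrays and −4.18, −4.35 and −4.73 on vehicle water arrays (difference 2.39 ± 0.56, adjusted p = 0.948). On average the salt arrays were higher with infusion and lower with vehicle, and the infused groups overlapped. Slurp1, a secreted protein of keratinocytes, showed the opposite, with −1.30, −2.47 and −2.21 on infused salt arrays, −0.23, −0.50 and −0.77 on infused water arrays, −0.39, −0.72 and −0.92 on vehicle salt arrays and −1.46, −2.29 and −1.76 on vehicle water arrays (difference −2.65 ± 0.65, adjusted p = 0.948).

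Fhad1 had −3.38, −3.28 and −3.34 on infused salt arrays, −3.16, −3.31 and −2.16 on infused water arrays, −1.99, −2.54 and −2.13 on vehicle salt arrays and −3.44, −3.34 and −3.68 on vehicle water arrays, a difference of −1.72 ± 0.46 (adjusted p = 0.948) between −0.46 with infusion and 1.27 with vehicle. With slide as a block that difference was −2.44, which rests on infused water array 3, the highest infused array. Scn2b, Baiap2 (an actin regulator) and Fbxo24 (an F-box protein) had differences of 1.00 ± 0.23, −0.65 ± 0.18 and −0.99 ± 0.27 (adjusted p = 0.948 for each). On the shared slides alone, where array 3 is the 1 infused water array left, Scn2b had 0.99. Gal3st3 was well above background on 1 infused salt array and 0 infused water arrays, so no fold is given. For the cholesterol and fatty acid synthesis list the median was −0.38 for salt with vehicle, with 7 of 29 lower at an unadjusted p under 0.05 (background 1.6%), and −0.32 for salt with infusion. These comparisons share no arrays, but their p-values come from 1 fit with a shared spread per gene. The count for salt with vehicle was not repeated with arrays left out. Of the 29 genes, 0 were positive and 0 negative at an unadjusted p under 0.05 for the difference between them, whose median was 0.06.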

How the data were processed

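Cy3-labelled cRNA of total RNA was measured on Agilent arrays of 1 colour. The label names aorta, while the extraction protocol speaks of cells. The scanner files hold spot intensity, deposited as a background-subtracted processed signal on a linear scale (Feature Extraction 10.7.1.1 per the file headers, 9.5.1.1 per the submitters' processing notes). The authors' deposited value table holds intensity with a median of 31 in each of 24 columns and nearly the same sorted values in all. It followed the scanner files array by array (lowest Spearman rho 0.99997), so it is linear, in the same direction and without centring of genes, and it served as an alternative. The steps behind it are not given in the sources used here.

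Each array had 59305 spots outside controls. Outlier spots (2910 over 24 arrays) were left out, 0 were saturated, and 51.1% to 60.8% were well above background. Spots of 55681 probes were averaged and put on log2 after scaling to the array's 75th percentile (516 to 769 on the 6 arrays). Probes well above background on all 3 arrays of a group were kept (33377), giving 23505 genes by the brightest probe, 8864 under a database name. RefSeq accessions named 27235 probes and symbols 3581, and positions are mm9 per the files. A limma model (version 3.58.1, R 4.3.3) with a mean per group over 24 arrays gave all comparisons, with Benjamini-Hochberg adjustment at 0.05. It was tested on simulated data of independent arrays without slide effects, so that test does not bear on the slides. Plots were drawn with matplotlib 3.10.9 in Python 3.11.15. The number of arrays limits the precision.

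The members, the 48 lists (903 of 1031 genes measured), the tests and the rule for names were chosen with earlier results of these data known. Since no gene passed, the rule named the 6 of smallest p in each direction, 2 members of each of 5 lists, 4 in each direction for each difference of differences, and Il17a and Il17f, leaving out database names. Alternatives were quantile normalisation, normexp with an offset of 50, the authors' values, 2 other filters, the mean of probes, a variance trend, slide as a fixed or random block (correlation 0.484), the shared slide, the replicate block, fewer arrays in the fit and each array left out.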

Additional observations from a re-analysis of the deposited data

How the results depend on the processing

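Salt during infusion in the knockout gave 0 genes under most alternatives. It gave 1 with the mean of a gene's probes (Scube1) and 1 with no filter on dim probes (Cypt7, lower), 261 with slide as a fixed block, and 0 to 92 with an array left out (92 without water array 3). Among genes of the lists, slide as a fixed block gave 29, and leaving out an array gave 0 to 2. In the wild type, no filter gave 4, slide as a fixed block 9, and leaving out an array 0 to 15 (15 without salt array 3). Salt with vehicle gave 0 to 2 with an array left out. The genotype difference gave 41 with slide as a fixed block and 0 to 33 with an array left out (33 without knockout water array 3). The difference between infusion and vehicle gave 151 with slide as a fixed block, 396 on the shared slide alone, and 0 to 2 with an array left out. The causes of these shifts were not tested.

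Of the values of named genes under alternatives, 778 kept direction and side of the threshold, 13 passed it, and 5 changed sign. Mylk was -0.40 with slide as a fixed block and on the shared slide. Pdlim3 was -0.49 under both and -0.14 with slide as a random block. With normexp, salt during infusion gave 0.04 for Scnn1a. The genotype difference was then 0.69 for Scube1 and 0.63 for Hes1, and the difference between infusion and vehicle 0.47 for Scube1, 0.54 for Casq2 and -1.01 for Fhad1. With the mean of probes the Fdft1 genotype difference was -0.85, Fhad1 was -0.58 and Mylk 0.38. The replicate block gave 0 genes in each comparison. Arrays of the same number did not deviate together (correlations 0.057, -0.28 and 0.0608), so the numbers were not taken as pairs. With 3 arrays a group, dim probes and differences under about the interval's half-width are beyond what these arrays resolve. After adjustment over all genes, larger differences can also go unseen.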
